A study of Homo sapiens with 2 samples.

Results

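The clustered replication-dependent histone genes were taken as the protein-coding genes of the RefSeq annotation of GRCh38 (patch 14) whose symbols start with H2AC, H2BC, H3C or H4C and a digit, together with H1-1 to H1-6, chosen by name alone. This gave 70 of the 19974 protein-coding genes on chromosomes 1 to 22 and X: 6 linker histone H1 genes, 17 H2A, 19 H2B, 13 H3 and 15 H4 genes. JUNB is a JUN family protein that forms AP-1, a dimeric transcription factor, and its binding at these genes was read from CUT&RUN peak lists of IMR-90, a human lung fibroblast cell line in wide use. There was 1 library from untreated cells and 1 from cells given etoposide, a topoisomerase II inhibitor that breaks DNA and brings fibroblasts into senescence, and the labels give neither its dose nor its duration. In CUT&RUN an antibody, here against JUNB in both libraries, guides a nuclease to its target so that short DNA fragments are cut out and sequenced. With a single library of each condition the treatment could not be tested against replicate error, so counts and shares below describe these 2 libraries. Peak lists carry no expression values, so the fibroblast label was not checked against marker genes.

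Replication-dependent histone genes supply the proteins that package newly made DNA, and they are transcribed mainly in S phase. Most are short, lack introns, and give messages that end in a stem-loop in place of a poly(A) tail. They are held in clusters whose chromatin gathers with the coactivator NPAT into histone locus bodies, and many H2A and H2B genes share a promoter as head-to-head pairs. Cells that stop dividing, as senescent fibroblasts do, are known to make little replication-dependent histone messenger RNA.

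The untreated list held 32550 peaks on these chromosomes and the etoposide list 25739. The number of fragments at a peak's summit, recovered from the authors' fold and significance, was 15 at the median (quartiles 11 and 21) in the untreated library and 13 (10 and 17) in the etoposide library. The median -log10 q, the authors' significance of a peak, was 8.56 and 7.85. Peaks are ranked below within their own list by that value, with rank 1 the most significant.

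Few histone genes had a JUNB summit close by, and fewer in the etoposide library. A summit lay within 1 kb of 12 of the 70 genes in the untreated library, 17.1% (95% Wilson interval 10.1% to 27.6%), and of 4 in the etoposide library, 5.71% (2.24% to 13.8%). Both shares were below those of all protein-coding genes, of which 39.5% had an untreated and 30.3% an etoposide summit in the same window. The window grows with the gene, however, and the median histone gene is 494 bp long. Among protein-coding genes no longer than the longest histone gene (29682 bp) the shares were 21.7% and 12.2%. Among the 462 other protein-coding genes of at most 1 kb they were 3.46% and 1.73%, where 9 (14.5%) and 3 (4.84%) of the 62 histone genes of that length had a summit. The histone genes thus stood below genes in general in both libraries. The intervals of the 70 genes take in the shares of genes no longer than the longest histone gene. Histone genes of at most 1 kb stood above other genes of that length in the untreated library (interval 7.83% to 25.3%). In the etoposide library their interval, 1.66% to 13.3%, takes in the 1.73% of those genes. All intervals here cover counting error only.

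Counting around gene starts removes the effect of length. The start was listed for 64 histone genes, and 7 of these had an untreated summit within 1 kb of it, 10.9% (5.40% to 20.9%), against 17.5% of 15812 protein-coding genes with a listed start. In the etoposide library 1 did, 1.56% (0.276% to 8.33%), against 6.61%. Both intervals take in the share of all starts, so the histone starts are not set apart from them. The etoposide count was 0.143 times the untreated count for histone starts and 0.378 times for all starts, and around whole genes the ratios were 0.333 and 0.767. Part of this goes with the length of the lists. When the untreated list was shortened to its 25739 most significant peaks, 7 histone genes (10%) had a summit, and the ratio became 0.571, against 0.894 for all genes. At the starts it became 0.5 for histone genes, 2 genes against 1, and 0.499 for all genes. At equal list length, then, the listed starts of histone genes and of all genes had nearly the same ratio, on very few histone genes. H4C3, which had a summit in both libraries, has no listed start and is missing from these counts. The gene is 405 bp long. Its untreated and etoposide summits lay 350 and 483 bp from it, so both were within 1 kb of either end. Counting it would add 1 gene to each library and raise the histone ratios at starts, also at equal list length.

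**Figure D1:**
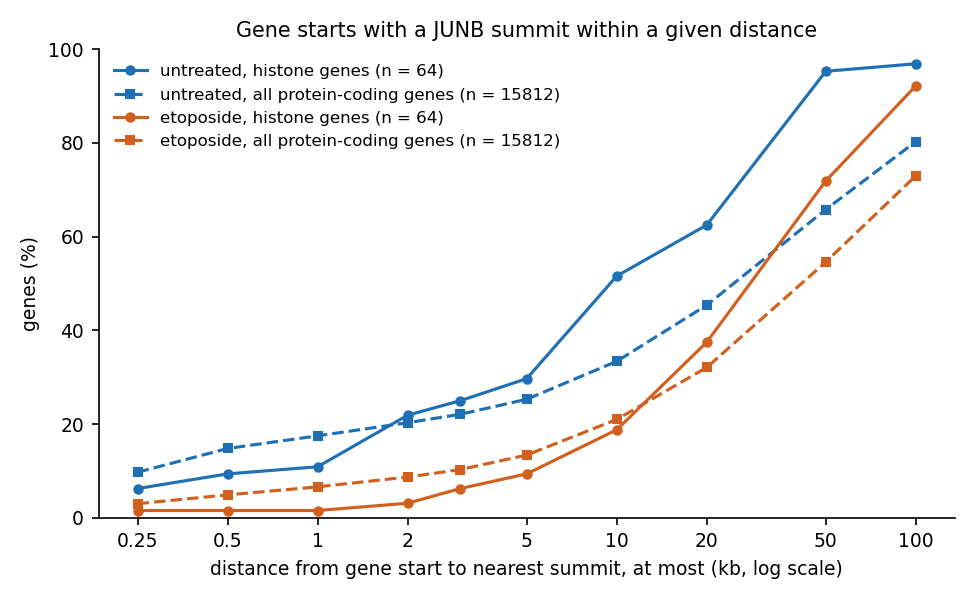
Share of genes (vertical axis, %) whose start had its nearest JUNB summit within the distance on the horizontal axis (kb, log scale), for 64 histone genes (solid) and 15812 protein-coding genes (dashed), untreated in blue and etoposide in orange. Within 1 kb the histone curves lie below the others, at 10.9% and 1.56%, and by 50 kb they lie above, at 95.3% and 71.9% against 65.8% and 54.6%.

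The neighbourhood of the histone genes was not poor in summits. The median distance from a histone start to the nearest summit was 9.93 kb in the untreated library, against 25.4 kb for all protein-coding starts, and 29.9 kb in the etoposide library, against 42.4 kb. Histone genes lie close together, so that 1 summit serves many of them and their distances are not independent. As the plot of distances shows, the histone share in the untreated library was the lower one up to 1 kb, on few genes. It was not at 2 kb, where 21.9% of histone starts and 20.3% of all starts had a summit. In the etoposide library the histone share stayed lower up to 10 kb, at 18.8% against 21.0%.

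By class, an untreated summit lay near 1 of 6 H1 genes, 4 of 17 H2A genes, 3 of 19 H2B genes, 0 of 13 H3 genes and 4 of 15 H4 genes. An etoposide summit lay near 1 H2B gene and 3 H4 genes and near no gene of the other classes. Both libraries had a summit at 2 genes, H4C3 and H2BC4. The untreated library alone had one at 10 genes: H1-2, H2AC4, H2AC11, H2AC18, H2AC19, H2BC11, H2BC18, H4C2, H4C8 and H4C15. The etoposide library alone had one at H4C5 and H4C11, and 56 genes had none. Over all protein-coding genes 26.6% had a summit in both libraries, 12.9% in the untreated library alone and 3.67% in the etoposide library alone. The H3 genes encode the core histone whose tail carries many of the best-known chromatin marks, and none of the 13 had a summit within 1 kb in either library. Of all 70 members 17.1% and 5.71% had one, and of other protein-coding genes of at most 1 kb 3.46% and 1.73%. A class of 13 is too small for 0 to be set apart from these shares. The summit nearest to an H3 gene was 1109 bp from H3C4 in the untreated library, the first gene outside the window. The last genes inside it were H4C2 at 636 bp in the untreated library and H4C11 at 831 bp in the etoposide library, where the next gene outside was H2AC6 at 2847 bp.

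The 12 genes of the untreated library rested on 11 summits, since 1 summit counted for both H2BC11 and H2AC11, another for both H2AC19 and H4C15, and H4C8 had 2. Most of these peaks were weak. Their -log10 q ran from 3.47 to 16.7 with a median of 6.40, and the fragments at the summit from 10 to 25 with a median of 14. The median peak ranked at 72.7% of the way down the untreated list. The 4 etoposide summits had -log10 q from 3.77 to 11.3 and 7 to 16 fragments. A counterpart in the etoposide list, meaning a peak sharing at least 1 bp, was found for 2 of the 11 untreated peaks. Of all untreated peaks 51.0% had one, and of those with a -log10 q no higher than the median of the 11 peaks, 26.1%.

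The most significant peak at any histone gene in both libraries lay inside H2BC4 on chromosome 6. This H2B gene is annotated from 26113170 to 26123926, much longer than most members. Its untreated peak at 26121236 to 26121468 had 25 fragments, a -log10 q of 16.7 and rank 4740. The etoposide peak at 26121261 to 26121454 had 16 fragments, a -log10 q of 11.3 and rank 6172. The summits, at 26121333 and 26121325, were 2.59 and 2.60 kb downstream of the start, so the peak lay in the body of the long annotated gene and not at its promoter. The other shared place was beside H4C3, an H4 gene at 26103933 to 26104337. The untreated peak at 26103414 to 26103734 had 20 fragments, a -log10 q of 12.5 and rank 8520, and the etoposide peak at 26103348 to 26103731 had 13 fragments, a -log10 q of 7.41 and rank 14320. Their summits were 350 and 483 bp below the lower boundary of the gene, and the peaks overlapped.

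Few summits fell in a histone promoter in the strict sense, the stretch from 250 bases before to 50 after the start. There was 1 in each library. In the untreated library it was at H2AC4, an H2A gene at 26033092 to 26033618 on the minus strand of chromosome 6. The peak at 26033719 to 26033936 had its summit 157 bp upstream of the start, with 20 fragments, a -log10 q of 12.5 and rank 8519. The etoposide list had no peak there, and its nearest summit was 61.6 kb away. In the etoposide library the promoter was that of H4C5, an H4 gene at 26204610 to 26205021 on the plus strand. The peak at 26204510 to 26204698 had its summit 39 bp upstream of the start, but with only 7 fragments, a -log10 q of 3.94 and rank 24183 of 25739. The nearest untreated summit was 8.94 kb away. The 250 bases before each start are shown because these 2 promoters are the ones that hold a summit. They are from RefSeq on GRCh38.p14, read 5′ to 3′ along the strand of the gene, at chr6:26033619-26033868 (minus strand) for H2AC4 and chr6:26204360-26204609 (plus strand) for H4C5. Capitals mark matches, on either strand, to the motifs set out with the promoter counts.
H2AC4: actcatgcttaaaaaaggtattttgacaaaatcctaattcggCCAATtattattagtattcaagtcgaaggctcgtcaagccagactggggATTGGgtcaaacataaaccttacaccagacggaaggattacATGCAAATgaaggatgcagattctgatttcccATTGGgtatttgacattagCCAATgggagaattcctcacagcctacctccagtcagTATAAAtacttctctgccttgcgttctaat
H4C5: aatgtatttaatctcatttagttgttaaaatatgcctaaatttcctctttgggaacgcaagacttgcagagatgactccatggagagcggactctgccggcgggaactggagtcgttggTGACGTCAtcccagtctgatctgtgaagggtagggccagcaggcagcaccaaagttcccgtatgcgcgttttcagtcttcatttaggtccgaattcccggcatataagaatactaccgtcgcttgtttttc
The H2AC4 promoter holds 4 CCAAT boxes, the octamer and a TATA box. In the H4C5 promoter the only match was TGACGTCA, the cyclic AMP response element (CRE), at position -131 from the start. Neither holds the AP-1 motif.

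H4C8, an H4 gene at 26285126 to 26285534 on the minus strand of chromosome 6, had 2 weak untreated peaks around its start and none in the etoposide list. Its summits at 26285405 and 26285790 were 129 bp downstream and 256 bp upstream of the start. They had 10 and 11 fragments, -log10 q of 4.37 and 5.11 and ranks 30198 and 28214. The 250 bases before its start, at chr6:26285535-26285784 (minus strand), are shown for comparison with H4C5, since the promoters of both genes were 61.33% identical over 300 bases and both have the CRE at -131.
H4C8: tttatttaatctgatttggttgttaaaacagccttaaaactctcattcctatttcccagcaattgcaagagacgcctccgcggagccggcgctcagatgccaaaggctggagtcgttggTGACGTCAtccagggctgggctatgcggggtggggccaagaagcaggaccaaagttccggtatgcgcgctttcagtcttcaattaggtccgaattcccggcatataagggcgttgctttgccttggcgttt
These 2 genes had their listed peaks in different libraries, and all 3 peaks ranked at 86.7% or further down their lists.

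H2AC11 and H2BC11 form a head-to-head pair with starts 248 bp apart. An untreated peak on chromosome 6 at 27133156 to 27133357 had its summit inside H2AC11, 164 bp downstream of its start and 412 bp from H2BC11. It had 10 fragments, a -log10 q of 3.47 and rank 31778, the weakest peak at a histone gene in the untreated library. The annotation with listed starts gave 12 head-to-head pairs, 11 of H2A with H2B and 1 of H3 with H2B. Their starts were 194 to 248 bp apart. The H3 gene, H3C4, has the same listed start as H2AC7, so both pair with H2BC7 over the same 223 bp. The H3 pair is thus not a separate promoter. No summit of either library lay between the starts of any of the 12 pairs. The stretches between the starts of the H2A and H2B pairs were therefore without a listed summit in both libraries. Of all protein-coding starts, 9.73% had an untreated and 3.02% an etoposide summit within 0.25 kb on either side. The pairs are too few for their count of 0 to be set apart from these shares.

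At 3 genes the summit lay past the 3′ end of the gene. An untreated peak 636 bp past H4C2, at 26025900 to 26026380 on chromosome 6, had 20 fragments, a -log10 q of 8.86 and rank 15532. Another lay 443 bp past H1-2, a linker histone gene expressed in most cell types, at 26055163 to 26055384, with 14 fragments, a -log10 q of 8.97 and rank 15232. The etoposide peak by H4C11, at 27825247 to 27825435, lay 831 bp past the gene, with 7 fragments, a -log10 q of 3.77 and rank 24530. None of the 3 had a counterpart in the other list.

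Along chromosome 6 the members run from H2AC1 to H2BC17, at 25726063 to 27893891, with 55 of the 70 genes in 2.168 Mb. This span held 26 untreated summits, 12 per Mb, and 15 etoposide summits, 6.92 per Mb. Up to the last annotated gene, the whole chromosome held 11.7 and 9.82 per Mb. The span was thus close to its chromosome in the untreated library and below it in the etoposide library. The genes fall into 4 blocks divided by gaps of over 200 kb. The block from H1-1 to H4C8 (268.5 kb, 32 genes) held 7 untreated and 3 etoposide summits. The block from H2BC11 to H2AC12 (15.25 kb, 5 genes) held 1 and 0, the block from H2BC13 to H2BC17 (86.41 kb, 16 genes) held 1 and 2, and the H2AC1 and H2BC1 pair held none. The 4 blocks together cover 0.371 Mb and held 9 untreated and 5 etoposide summits, 24.2 and 13.5 per Mb. The 1.80 Mb between them held 17 and 10, or 9.46 and 5.57 per Mb.

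**Figure D2:**
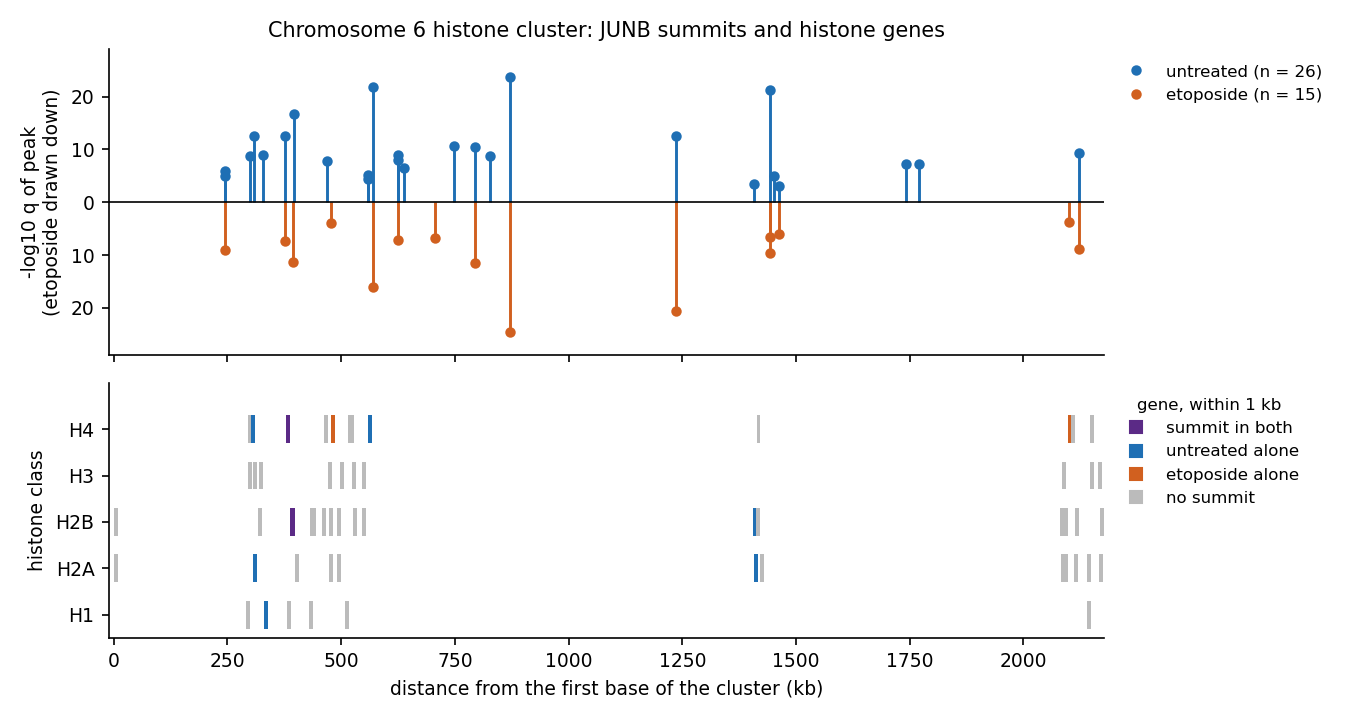
JUNB summits (upper panel, -log10 q of each peak, 26 untreated up in blue and 15 etoposide down in orange) and histone genes by class (lower panel, coloured by the library with a summit within 1 kb) along the chromosome 6 cluster, as distance from its first base in kb. The tallest stems, near ABT1, stand away from the histone genes.

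The most significant peaks of the cluster were not at histone genes. Of the 26 untreated summits 8 lay within 1 kb of a histone gene, and of the 15 etoposide summits 4 did. The strongest in both libraries was at ABT1, which encodes an activator of basal transcription, with summits 265 and 293 bp from the gene. It had 29 fragments and a -log10 q of 23.7 in the untreated library (rank 2060), and 27 fragments and 24.5 in the etoposide library (rank 793). A shared peak at 26296191 to 26296939 in the untreated list lay 10.8 kb from H4C8, the nearest histone gene, with 33 fragments and a -log10 q of 21.8. Its etoposide counterpart at 26296203 to 26296970 had 23 fragments and 16.1. Shared peaks were 12 of the 26 untreated and 12 of the 15 etoposide peaks of the span, which include those at its histone genes. At histone genes of both clusters they were 2 of the 11 and 2 of the 4, where peaks were mostly weak. Of all peaks no more significant than the median at histone genes, 26.1% were shared in the untreated and 43.4% in the etoposide list. The 21 other protein-coding genes lying wholly inside the 2 clusters had a median length of 12.9 kb, and 5 (23.8%, 10.6% to 45.1%) had an untreated and 2 (9.52%, 2.65% to 28.9%) an etoposide summit within 1 kb. These were TRIM38 and ABT1 in both libraries and the butyrophilin genes BTN3A2 and BTN2A1 and the zinc finger gene ZNF184 in the untreated library alone. The chromosome 6 span also holds 98 transfer RNA genes, of which 6 had an untreated and 1 an etoposide summit within 1 kb. The 6 rested on 5 summits, and 1 of these, at 26285790, is also counted for H4C8. The share over all transfer RNA genes was not counted here, so these counts are not set against it.

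The chromosome 1 cluster, from H2BC18 to H2AC21 at 149782689 to 149887965, holds 11 members in 105.3 kb. It had 3 untreated summits (28.5 per Mb), all within 1 kb of a histone gene, and 0 etoposide summits. Chromosome 1 as a whole held 12.8 untreated and 10.3 etoposide summits per Mb, which over the length of the cluster comes to 1.35 and 1.09 summits. The cluster is thus too short for 0 summits to be set apart from its chromosome, and at equal list length its untreated density was 9.50 per Mb. The nearest etoposide summit was 78.1 kb or more from each of the 4 genes with an untreated one. The 4 members outside the clusters, H2AC25 and H2BC26 on chromosome 1, H4C16 on chromosome 12 and H2BC12L on chromosome 21, had no summit within 1 kb in either library.

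**Figure D3:**
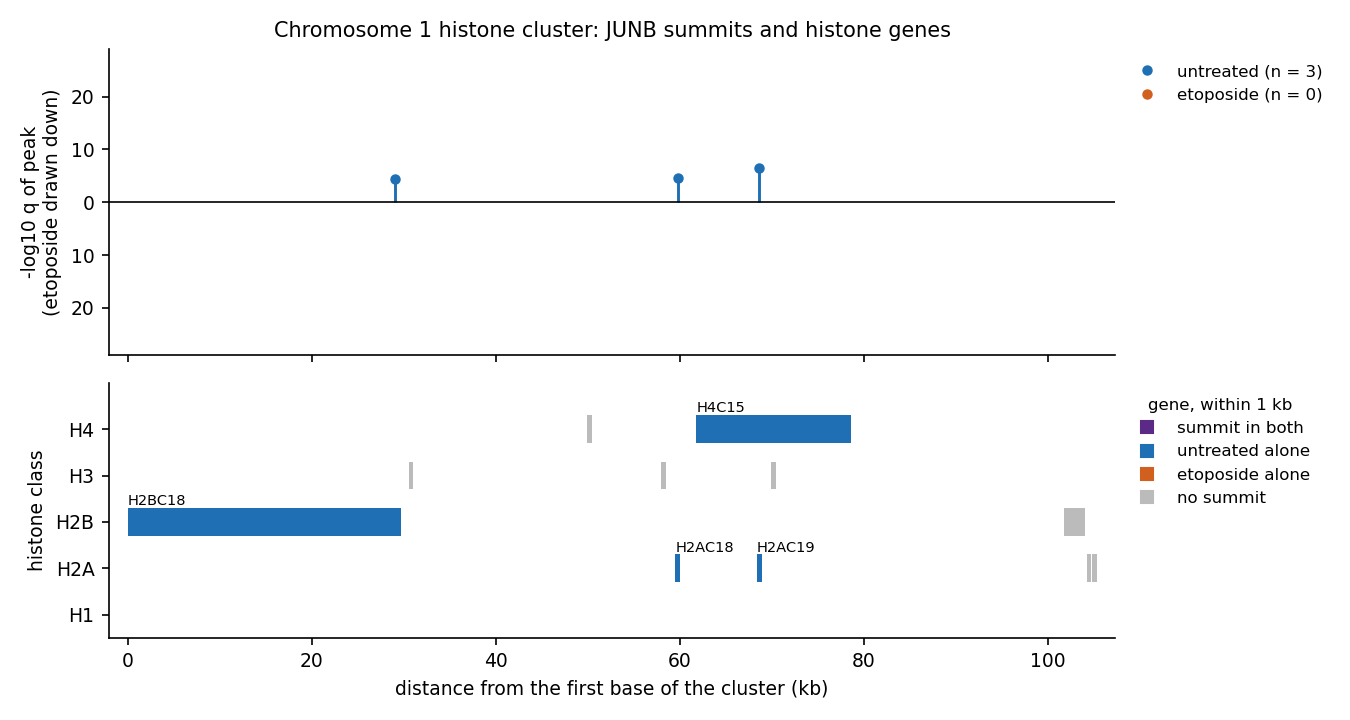
The chromosome 1 cluster drawn in the same way, with 3 untreated summits, at H2BC18, at H2AC18 and at H2AC19 inside the long annotation of H4C15, and 0 etoposide summits. Their -log10 q lay between 4.49 and 6.40.

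Of these 3 peaks, those at H2AC18 and H2AC19 lie in genes whose promoters are near-identical copies. The H2AC18 peak at 149842451 to 149842678 had 14 fragments, a -log10 q of 4.60 and rank 29667, and the H2AC19 peak at 149851119 to 149851376 had 14 fragments, 6.40 and rank 23673. The genes are on opposite strands, and the summits were at mirrored places, 264 and 249 bp downstream of their starts. The third, at 149811742 to 149811965 inside H2BC18 and 574 bp downstream of its start, had 10 fragments, a -log10 q of 4.49 and rank 29915. The promoters of H2AC18 and H2AC19 were 100% identical over 299 bases after a shift of 1 base, and the 250 bases before each start are given to show this, at chr1:149842751-149843000 (minus strand) and chr1:149850811-149851060 (plus strand).
H2AC18: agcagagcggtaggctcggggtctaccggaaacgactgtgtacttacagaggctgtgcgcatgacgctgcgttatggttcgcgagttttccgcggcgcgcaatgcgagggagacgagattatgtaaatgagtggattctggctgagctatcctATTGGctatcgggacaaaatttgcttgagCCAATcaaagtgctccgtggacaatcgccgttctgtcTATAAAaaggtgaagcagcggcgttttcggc
H2AC19: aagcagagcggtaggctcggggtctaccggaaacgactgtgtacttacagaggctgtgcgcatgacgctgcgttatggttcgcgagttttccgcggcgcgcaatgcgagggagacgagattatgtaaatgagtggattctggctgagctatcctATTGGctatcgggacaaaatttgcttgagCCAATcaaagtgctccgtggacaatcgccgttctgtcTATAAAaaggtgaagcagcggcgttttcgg
Both summits lie downstream of the compared stretch, and the sequence under them was not compared here. Reads from identical stretches cannot be placed with certainty, and how the authors treated reads with several places is not given in the sources used here. The assignment of these peaks to either gene is therefore uncertain. Of 2016 pairs of histone promoters 5 were at least 90% identical. Besides this pair they were H3C14 with H3C15 and H4C14 with H4C15 (100%), H4C11 with H4C12 (98.33%), and H2AC7 with H3C4, which share a start in the annotation. Leaving out the chromosome 1 cluster left 8 untreated and 4 etoposide genes of 59.

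JUNB binds with a partner. The AP-1 motif was searched here in the loose form TGANTCA, with any base at N, while dimers with ATF proteins can also bind the CRE, TGACGTCA. The promoters, 300 bases each, were searched on both strands for these and for motifs known from histone promoters. These were CCAAT (bound by NF-Y), TATAAA, the octamer ATTTGCAT (bound by POU2F1), and the E2F-like TTTGGCGC and TTTCCCGC. No motif of this set contains another. The AP-1 motif was in 1 of 64 histone promoters, 1.56%, and in 5.76% of 15812 promoters of protein-coding genes. The promoter that holds it, H3C8, had no summit within 1 kb in either library. Its 250 bases before the start, at chr6:26271414-26271663 (minus strand), have the motif at -150 among 4 CCAAT boxes. The match reads TGATTCA, and forms with fewer bases allowed at N were not counted apart.
H3C8: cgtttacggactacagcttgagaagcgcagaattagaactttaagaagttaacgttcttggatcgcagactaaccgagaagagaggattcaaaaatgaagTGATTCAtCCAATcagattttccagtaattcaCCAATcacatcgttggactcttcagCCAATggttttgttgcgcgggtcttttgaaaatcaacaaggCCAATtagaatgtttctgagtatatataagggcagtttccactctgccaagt
Of the 11 listed promoters of genes with an untreated summit, 0 held the AP-1 motif. A match describes the letters only, and the absence of a match says nothing of other forms of the site or of places beyond the window.

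The CRE was more common, in 9 histone promoters (14.1%) against 2.59% of all. These were H2AC14, H2AC16, H2BC12, H2BC14, H3C2, H3C14, H3C15, H4C5 and H4C8, of which H2AC14 and H2BC14 share a single site between their head-to-head starts. Of the 9, only H4C8 had an untreated and H4C5 an etoposide summit within 1 kb. The CRE of H4C8 begins at 26285658 and that of H4C5 at 26204479, and neither lies within a listed peak. The motifs known from histone promoters were frequent in them. CCAAT was in 84.4% (36.3% of all promoters), TATAAA in 65.6% (9.64%) and the octamer in 40.6% (1.70%). The octamer was found in 14 of 18 H2B and 11 of 16 H2A promoters, 1 of 11 H3 promoters and no H1 or H4 promoter. The searched stretches of head-to-head genes overlap, so these counts are of promoters and not of separate sites. A single octamer counts for both H2BC21 and H2AC20, for example. The H3 promoter is that of H3C4, and its octamer is the same site as that of H2AC7 and H2BC7. CCAAT was in each H1, H2A, H2B and H3 promoter searched but in 3 of 13 H4 promoters. TTTGGCGC was in 0 histone promoters (0.892% of all) and TTTCCCGC in 1 (2.18% of all).

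**Figure D4:**
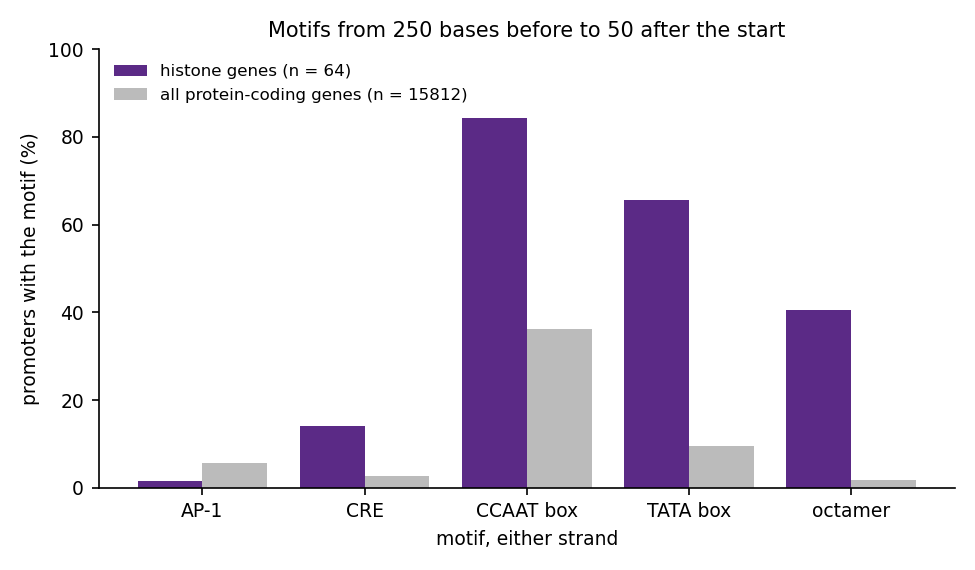
Share of promoters (%, from 250 bases before to 50 after the start) with each motif on either strand, for 64 histone genes (purple) and 15812 protein-coding genes (grey). Of the 5 motifs drawn, which leave out the E2F-like ones, AP-1 is the one whose histone bar, 1.56%, lies below its grey neighbour, 5.76%.

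The genes that act on histone genes and their messages gave another comparison. Of 43 symbols listed, 41 were in the annotation, with a median length of 29.4 kb. A summit lay within 1 kb of 19 in the untreated library (46.3%, 32.1% to 61.3%) and of 14 in the etoposide library (34.1%, 21.6% to 49.5%), with 10 in both, near the 39.5% and 30.3% of all genes. The strongest peak was inside CPSF3, the nuclease that cuts the 3′ end of histone messages, with 51 untreated fragments (-log10 q 37.6, rank 513) and 46 etoposide fragments (40.2, rank 135). It was shared, with summits 16737 and 16711 bp downstream of the start. ASF1A, a chaperone of H3 and H4, had a shared peak with 32 and 17 fragments (-log10 q 22.9 and 10.9). ERI1, an exonuclease that trims the histone stem-loop, had 18 and 16 fragments (12.9 and 9.94) at its strongest peak. ZNF473, a factor of histone message processing, had 18 and 11 (12.4 and 9). NFYC, a subunit of NF-Y, had 16 and 13 (11.9 and 7.85) at separate strongest peaks.

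At the starts of these genes the libraries stood further apart. Of the 35 with a listed start, 10 had an untreated summit within 1 kb of it (28.6%, against 17.5% of all starts) and 1 an etoposide summit (2.86%, against 6.61%). The 10 were CPSF3, E2F3, HINFP, LSM10, NASP, NFYA, NFYC, NPAT, POU2F1 and SUPT16H, and the etoposide gene was NFYC. Part of the gap goes with the length of the lists. The untreated peaks of E2F3, NASP, NFYA, NPAT and POU2F1 ranked beyond 25739, the length of the etoposide list. They would be lost at equal list length, for which these starts were not counted. The 10 genes include NPAT, the coactivator of the histone locus body, and HINFP, a factor of H4 promoters, which were singled out after their values were seen. NPAT had 13 untreated fragments (-log10 q 5.44, rank 27184) at -517 from the start, and HINFP had 9 (6.37, rank 23881) at 110 bp downstream. Neither had an etoposide summit. SLBP, the protein that binds the histone stem-loop, had no summit within 1 kb in either library.

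Replacement histone genes and other histone genes outside the naming rule formed the last list. Of 31 symbols listed, 27 were protein-coding genes of the annotation under that name and not members. A summit lay within 1 kb of 3 in the untreated library (11.1%, 3.85% to 28.1%) and of 1 in the etoposide library (3.70%, 0.657% to 18.3%). Of all protein-coding genes 39.5% and 30.3% had one, but the median length of the 27 was only 2.2 kb. The 1 etoposide gene had no untreated summit, and 3.67% of all protein-coding genes had an etoposide summit alone, nearly the same share. The untreated genes were H3-3B, a gene of the replacement histone H3.3 (15 fragments, -log10 q 8.93, 163 bp downstream of the start), MACROH2A1 (13 fragments, 6.87) and CENPA, the centromeric H3 (7 fragments, 4.07). The etoposide gene was H2AJ, an H2A variant known to build up in senescent fibroblasts with DNA damage. Its peak on chromosome 12 at 14775632 to 14775835 had 17 fragments, a -log10 q of 11.9 and rank 5563, with the summit 1275 bp downstream of the start, and the untreated list had no summit within 1 kb of the gene.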

How the data were processed

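JUNB was profiled by CUT&RUN in 1 untreated and 1 etoposide library of IMR-90, grouped by the treatment label. The authors deposited a narrowPeak list for each, and no control library is named. Bowtie2, MACS2, mm10 and hg38 are named, with no role or version, in the submitters' processing notes. Other settings are not given in the sources used here. The deposited fold is the ratio of summit signal to local background, 2 further deposited columns give the significance as -log10 p and as -log10 q, and 10 times the latter, cut to a whole number, was the deposited score in 100% of peaks. These are the authors' own values, used to describe and rank peaks within a list. Peaks on chromosomes 1 to 22 and X were kept, and positions were read on GRCh38 and counted from 1.

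Summits within 1 kb of each gene (first to last annotated base) were counted in Python 3.11.15 with pandas 2.3.3, numpy 2.4.6 and SciPy 1.17.1. The fragments k at a summit were the whole number for which fold = (k + 1)/(b + 1) and the Poisson upper tail above k at background b gave the deposited -log10 p within 0.001, which was found for 100% of peaks of both lists. This assumes MACS2's formula with a pseudocount of 1. Library totals are unknown from peak lists. Counting and pileup recovery were tested on simulated data.

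Clusters were runs of at least 3 members no more than 1 Mb apart. Starts, strands and promoter sequences were from RefSeq's promoter table (GRCh38.p14). Promoters were compared without gaps, with shifts of up to 30 bases. Named were the members with an etoposide summit, up to 4 per class with an untreated summit alone by -log10 q, and the 5 strongest genes of each comparison list. The members, lists and alternatives were chosen with earlier results of these data known, and the class of genes of at most 1 kb and the count without chromosome 1 were added after the data had been seen.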

Additional observations from a re-analysis of the deposited data

How the results depend on the processing

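Of 71 alternative values, 42 stayed within 1.5 times the reported count or density and 29 did not. The order of the libraries at histone genes, more in the untreated, held under each alternative run for them. The values that went beyond 1.5 times follow.

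With a 10 kb window 36 histone genes had an untreated and 14 an etoposide summit. Within 1 kb of the start these were 7 and 1. Among the 10000 strongest peaks they were 3 and 1, resting on 3 and 1 distinct summits, with 3.23 and 2.77 summits per Mb in the chromosome 6 cluster and 0 untreated summits per Mb in the chromosome 1 cluster. At a -log10 q of at least 5, 2 histone genes had an etoposide summit, distinct summits were 7 and 2, and the chromosome 1 cluster had 9.50 untreated summits per Mb. With lists of equal length 7 histone genes had an untreated summit, on 6 distinct summits, and the chromosome 1 cluster had 9.50 per Mb. Dividing the chromosome 6 span at gaps over 200 kb gave 24.2 and 13.5 per Mb. The cause of these moves is the construction of each setting, since fewer peaks or other windows were counted.

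Among the 10000 strongest peaks the other lists had 1 and 1 non-histone genes of the clusters, 6 and 4 regulators and 0 untreated replication-independent genes. Within 10 kb there were 4 etoposide non-histone genes, and 6 and 5 replication-independent genes. The CRE was in 9 histone promoters and the AP-1 motif in 1.

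No paired analysis was possible because each condition had a single library and the labels give no replicate numbers. Leaving out a replicate was not run for the same reason. Listed summits at histone genes held as few as 7 fragments, and a place with no listed peak is one where none passed the authors' threshold.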
